A study of Mus musculus with 23 samples.

Results

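The repressor arm of the circadian clock was measured in brown adipose tissue (BAT) as 7 genes: the PER genes Per1, Per2 and Per3, the CRY genes Cry1 and Cry2, and the REV-ERB genes Nr1d1 and Nr1d2. They were found by symbol among the 14651 genes of the table, and all 7 were present. The genes were chosen by their measured changes after 6 h of cold in each genotype, so their values at 4°C against room temperature (RT) are a description, and the calls and SE printed with them test nothing. RNA from 23 mice was sequenced in 4 groups, namely 6 controls and 6 BAT-Mcu-KO knockouts kept at RT and 5 controls and 6 knockouts kept at 4°C. All were males of 8 to 12 weeks on a C57BL/6 background, and all carried Mcu[fl/fl], in which exon 2 of Mcu lies between loxP sites. The authors made that line from embryonic stem cells of a mixed strain background and crossed it to C57BL/6J mice until nearly, not fully, uniform. BAT-Mcu-KO mice also carried Ucp1-Cre, a transgene in which the promoter of the brown fat gene Ucp1 drives Cre recombinase, so that other cells of the tissue keep the gene, and control mice lacked it. Cold exposure lasted 6 h and also meant single housing, a bare cage and, with possible exceptions, no food. Whether the RT mice had food, and at what hour of the light and dark cycle the tissue was taken, is not given in the sources used here. Cold, single housing, absence of food and any difference in the hour of collection between the temperatures cannot be told apart in this design.

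In the core clock, CLOCK and BMAL1 (the product of Arntl) form a pair that binds E-box elements and drives transcription of the Per and Cry genes, whose proteins return to the nucleus as a complex and block that pair. REV-ERB alpha (Nr1d1) and REV-ERB beta (Nr1d2) are nuclear receptors that bind ROR elements and, with the corepressor NCOR1 and the deacetylase HDAC3, shut off Arntl and other targets. The PAR bZIP factors DBP, TEF and HLF activate genes through D-boxes, and NFIL3 represses through the same element. In BAT, REV-ERB alpha is known as a repressor of Ucp1 and of thermogenic genes, and the PER and CRY proteins also bind nuclear receptors.

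The depth, taken here as the reads counted in the 14651 genes of the table and not all sequenced reads, was 7129271 to 21006347 per mouse. Mcu, the deleted gene, had a normalized read count of 70.8 to 136 in control and 15.2 to 42.4 in BAT-Mcu-KO mice, with no overlap. Of 9 brown adipocyte markers, all measured, Ucp1, Elovl3 and Pparg were called higher at 4°C in both genotypes by limma and Prdm16 lower, whereas in control mice alone Plin1 was called higher and Cidea and Adipoq lower. The summed count of 4 endothelial markers was 2437 to 3699 in control mice at RT and 4601 to 7352 at 4°C, and 2716 to 3661 and 4255 to 6161 in BAT-Mcu-KO mice. Of these markers Pecam1 and Kdr were called higher at 4°C in both genotypes by limma, and Cdh5 and Tek were not. Of 4 macrophage markers, whose sum was 288 to 498 in control and 199 to 602 in BAT-Mcu-KO mice, Cd68 (0.83 on the log2 scale, adjusted p = 0.0364, limma) and Mrc1 (0.62, adjusted p = 0.0197, limma) were called higher at 4°C in BAT-Mcu-KO mice and none in control mice. The B cell gene Cd79a was called lower in BAT-Mcu-KO mice (-1.91, adjusted p = 0.00691, limma), at 4.65 to 16.9 normalized counts at RT and 0 to 4.17 at 4°C. For the markers called in a single genotype the interaction did not pass, with adjusted p of 0.806 (Adipoq) to 0.95 (Cd68) by limma. A difference between the genotypes is therefore not shown for them. Sums of 8 skeletal muscle markers ran from 6.22 to 58677 over the libraries, within each group over a wide range. The part of these cells in the values below was not tested. In whole tissue, fewer cells of a type and less RNA per cell cannot be told apart.

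Per3, a PER gene that is not needed for the central clock to run, was the repressor that differed most between temperatures. It lies on chromosome 4 from 151003652 to 151044665 on the minus strand (GRCm38), inside the much longer gene Camta1, with which it shares no exonic base. Its normalized read count in control mice at RT had a lowest value of 2001, a median of 2093 and a highest value of 2604. At 4°C the 5 control mice had 233, 311, 351, 262 and 259. In the knockouts the lowest, median and highest values were 2129, 2253 and 2456 at RT and 309, 346 and 383 at 4°C. Every cold-exposed mouse lay below every RT mouse of its genotype, and the highest value at 4°C was far under the lowest at RT. In control mice the mean was 2215 ± 263 (SD, n = 6) at RT against 283 ± 47.4 (SD, n = 5) in the cold, a ratio of 0.128, and the knockouts had 2256 ± 119 (SD, n = 6) against 346 ± 33.7 (SD, n = 6), a ratio of 0.153. On the log2(normalized count + 1) scale, which is used for every log2 value here and understates the change of low genes, the difference was -2.97 (SE 0.099) and -2.71 (SE 0.095). By size of the log2 difference Per3 ranked 132 of 14651 genes in controls and 158 in the knockouts. The 4°C values rest on 115 to 489 reads per mouse.

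The sequence before the annotated start of Per3 is shown for its D-boxes, the element of DBP, TEF, HLF and NFIL3. Among the searched repressor starts it alone held the letters TTATGTAA or TTACGTAA, and other spellings of the D-box were not searched. The stretch is chr4:151044796-151044890 on the minus strand, read 5′ to 3′ from the RefSeq promoters of build GRCm38.p6, and the capitals mark the D-boxes, which begin 205 and 158 bases before the start.
Per3: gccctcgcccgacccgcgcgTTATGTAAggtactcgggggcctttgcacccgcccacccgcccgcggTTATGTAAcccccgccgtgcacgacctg
A D-box, searched as TTATGTAA or TTACGTAA on either strand, was held by 1.06% of the 32851 promoter windows of the same length, which run from 250 bases before to 50 bases after a start. The windows of the repressors were searched over that whole length, although only bases before the start are printed here. A match is a description of letters and shows no binding.

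Per1 and Per2, the PER genes whose proteins carry the repression in the core loop and whose transcription also responds to cAMP and glucocorticoid signals, were higher at 4°C, opposite to Per3. Per1 had lowest, median and highest values of 549, 955 and 1274 in controls at RT, whereas the cold controls had 1697, 1194, 1493, 1455 and 1350.3. In the knockouts the values were 854, 1012 and 1234 at RT and 1281, 1369.9 and 1673 at 4°C. The groups did not overlap in BAT-Mcu-KO mice, and in control mice 4 of the 5 cold values lay above every RT value. The log2 difference was 0.66 (SE 0.14) in controls and 0.51 (SE 0.14) in the knockouts.

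For Per2 the lowest, median and highest values in control mice were 237, 396 and 623 at RT, whereas the 5 cold mice had 562, 666, 668, 644 and 534. In the knockouts they were 290.3, 409 and 492 at RT and 547, 611 and 698 at 4°C. The pattern followed that of Per1, with groups apart in BAT-Mcu-KO mice and with 3 of 5 cold control values above every RT value. The log2 difference was 0.63 (SE 0.17) in controls and 0.61 (SE 0.16) in the knockouts. The RT control mice were the most spread, with a mean of 416 ± 143 (SD, n = 6) against 615 ± 62.5 (SD, n = 5) at 4°C. RT control replicate 1 was the lowest of its group for Per1 and Per2 and RT control replicate 5 the highest.

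Per1 has a pair of starts in the RefSeq promoters, and both windows are shown for the letters TGACG, the core of the CRE that cAMP-responsive factors bind. The upstream start held an E-box in addition. The stretches are chr11:69098699-69098808 and chr11:69100000-69100044, both on the plus strand, and the capitals mark TGACG and the E-box CACGTG.
Per1, start 1: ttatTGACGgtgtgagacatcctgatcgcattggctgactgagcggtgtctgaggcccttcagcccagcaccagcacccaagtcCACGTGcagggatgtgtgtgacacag
Per1, start 2: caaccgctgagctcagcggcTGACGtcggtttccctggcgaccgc
TGACG was found in 20.8% of all promoter windows and CACGTG in 7.15%. The complete CRE TGACGTCA, which holds TGACG on either strand, was found in 1.79% of windows and in none of the 7 windows of the repressors. No window for Per2 was among these promoters.

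The CRY genes, whose proteins are the strongest repressors of CLOCK and BMAL1, differed from each other. Cry1, on chromosome 10 from 85131700 to 85185064, had lowest, median and highest values of 112, 166 and 254 in controls at RT, whereas the cold controls had 136, 375, 357, 228 and 393. In the knockouts the values were 118, 193 and 236 at RT and 214, 275 and 312 at 4°C. Cold values were mostly higher, with 3 of 5 control mice and 5 of 6 BAT-Mcu-KO mice above every RT mouse of their genotype, but control replicate 1 at 4°C lay within the RT range. The log2 difference was 0.78 (SE 0.23) in control mice, and 1.03 without that replicate. In BAT-Mcu-KO mice it was 0.54 (SE 0.22). Its values in cold control mice rest on 67 to 490 reads per mouse, the 67 being the lowest read number of any repressor in any mouse.

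Cry2, on chromosome 2 from 92403646 to 92434043, was nearly level. The lowest, median and highest values in control mice were 368, 436 and 509 at RT, whereas the 5 cold mice had 611, 379, 432, 444 and 373. In the knockouts they were 401, 459.7 and 511 at RT and 371, 403 and 495 at 4°C. The temperatures overlapped in both genotypes. The log2 difference was 0.017 (SE 0.12) in control mice, where its sign turned to -0.091 under quantile normalization, to -0.092 under scaling to the 75th percentile and to -0.10 without control replicate 1 at 4°C, and -0.11 (SE 0.11) in BAT-Mcu-KO mice. Cry2 shares 295 exonic bases, 4.67% of its exons, with D930015M05Rik on the opposite strand, and since counting ignored strand the reads of that stretch cannot be told apart.

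The windows of both CRY genes are shown for their E-boxes, through which CLOCK and BMAL1 act. The stretches are chr10:85185055-85185153 and chr2:92434210-92434298, both on the minus strand. The capitals mark CACGTG, the E-prime box CACGTT read on the other strand as AACGTG, and TGACG, read on the other strand as CGTCA.
Cry1: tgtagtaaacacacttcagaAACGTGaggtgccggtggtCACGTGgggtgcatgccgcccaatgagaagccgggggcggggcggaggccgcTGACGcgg
Cry2: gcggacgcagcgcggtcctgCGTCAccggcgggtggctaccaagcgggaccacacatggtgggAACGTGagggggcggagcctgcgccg
The E-prime box was found in 4.68% of all windows. Cry1 held an E-box and an E-prime box within the 79 bases before its start, and Cry2 held an E-prime box but no E-box.

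The REV-ERB genes went in opposite directions. Nr1d1, on chromosome 11 from 98767932 to 98775333, had lowest, median and highest values of 398, 569 and 851 in controls at RT, whereas the cold controls had 429, 187, 270.1, 406 and 291. In the knockouts the values were 375, 500.0 and 1047 at RT and 162, 291 and 513 at 4°C. The cold values were lower with an overlap, since 3 of 5 control mice and 4 of 6 BAT-Mcu-KO mice lay below every RT mouse of their genotype. The ratio of means was 0.532 in controls and 0.544 in the knockouts, with log2 differences of -0.93 (SE 0.27) and -0.86 (SE 0.26). Nr1d1 was among the most variable repressors within groups, with 587 ± 255 (SD, n = 6) as the mean of the RT knockouts, where replicate 2 stood highest. It shares 263 exonic bases, 8.55% of its exons, with Thra on the opposite strand.

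Nr1d2, on chromosome 14 from 18204054 to 18239127, was higher at 4°C. In control mice its lowest, median and highest values were 433, 625 and 833 at RT, whereas the 5 cold mice had 1309, 763, 848, 983 and 761. In the knockouts they were 577, 733 and 853 at RT and 618, 961 and 1205 at 4°C. The groups overlapped in both genotypes, with 3 of 5 and 4 of 6 cold mice above every RT mouse. The log2 difference was 0.58 (SE 0.17) in controls and 0.32 (SE 0.16) in the knockouts. With 1 mouse left out, that of controls ran from 0.45, without control replicate 1 at 4°C, to 0.67, without control replicate 3 at RT.

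The window of Nr1d1 is shown for an E-prime box 28 bases before its start, at chr11:98775380-98775425 on the minus strand, with the box in capitals.
Nr1d1: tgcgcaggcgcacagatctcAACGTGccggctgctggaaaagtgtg
The window of Nr1d2 held neither an E-box nor an E-prime box. The ROR element TAGGTCA, the letters that REV-ERB receptors and RORs read, was found in 2.61% of all windows and in none of the 7 windows of the repressors. The heat shock element (0.603% of windows) and the ATF4 composite element TGATGNAA (3.97%) were also in none of them. The CAAT box CCAAT, in 37.4% of windows, was in those of Per1, Per3, Cry1, Cry2 and Nr1d2. No match says only that these letters are not in this window.

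**Figure D1:**
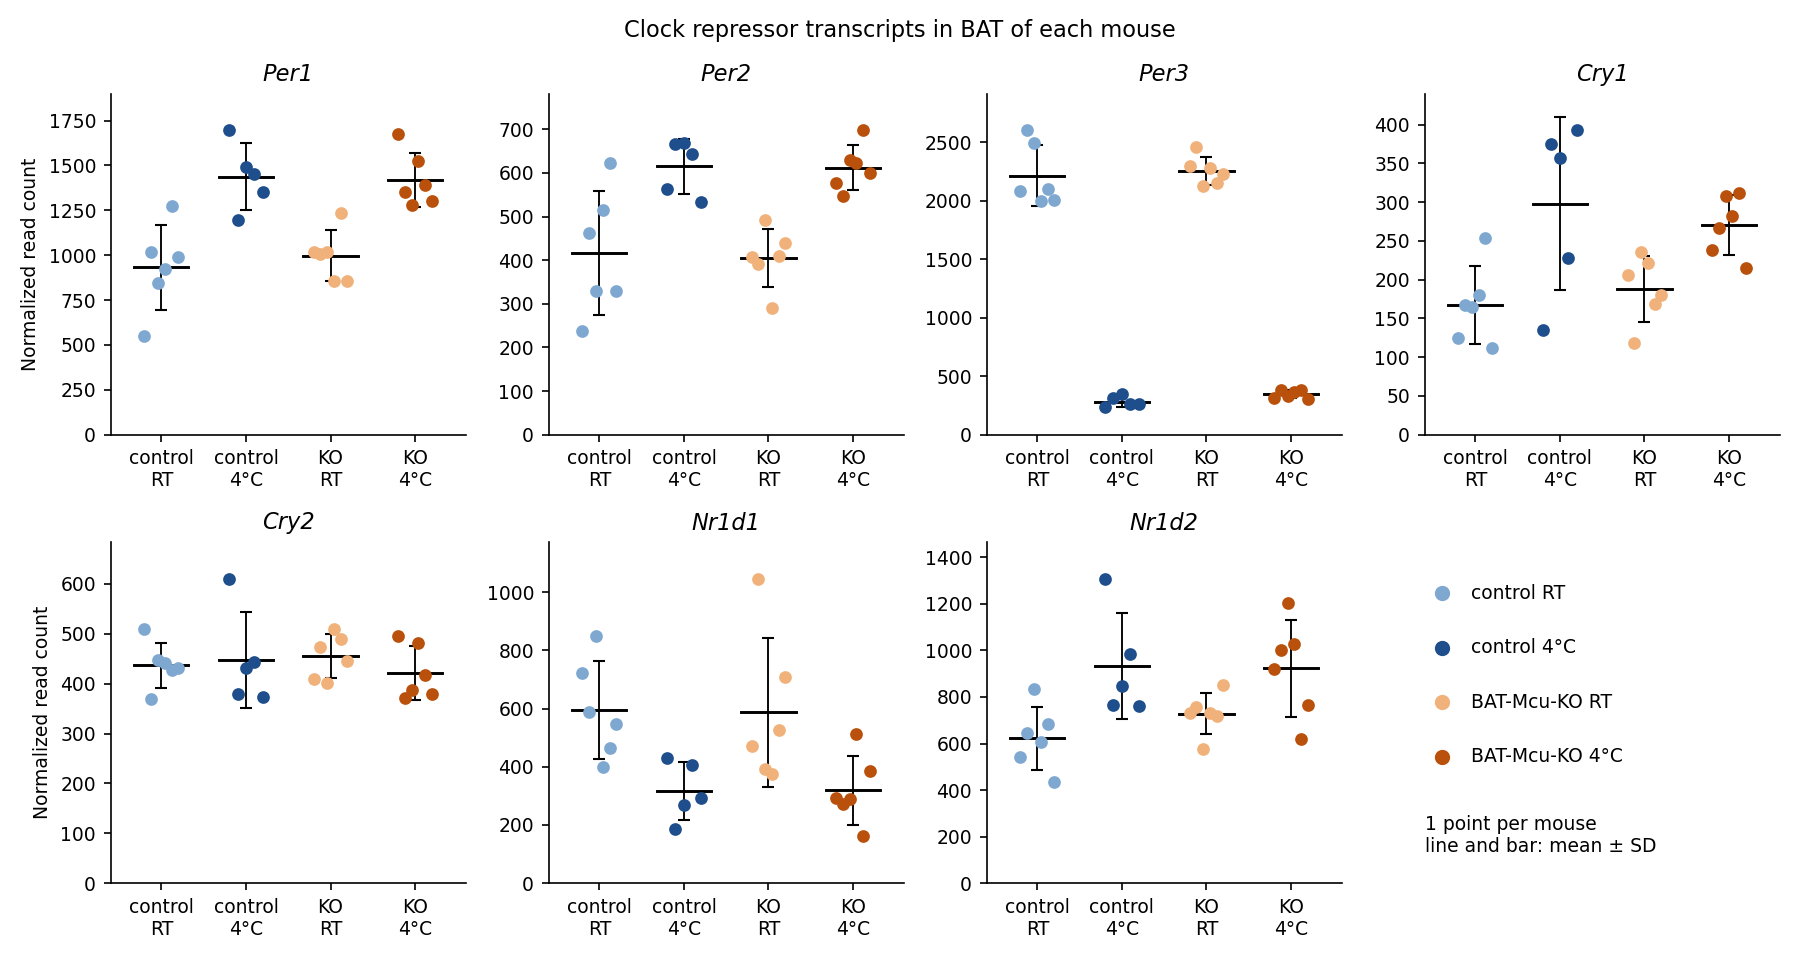
Normalized read count (vertical axis, from 0) of each repressor in each mouse, 1 panel per gene and 1 point per mouse, with the mean and SD of the 4 groups as lines and bars. Per3 at 4°C lies at 233 to 383, under the lowest RT value of 2001, while the groups of Cry2 overlap.

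**Figure D2:**
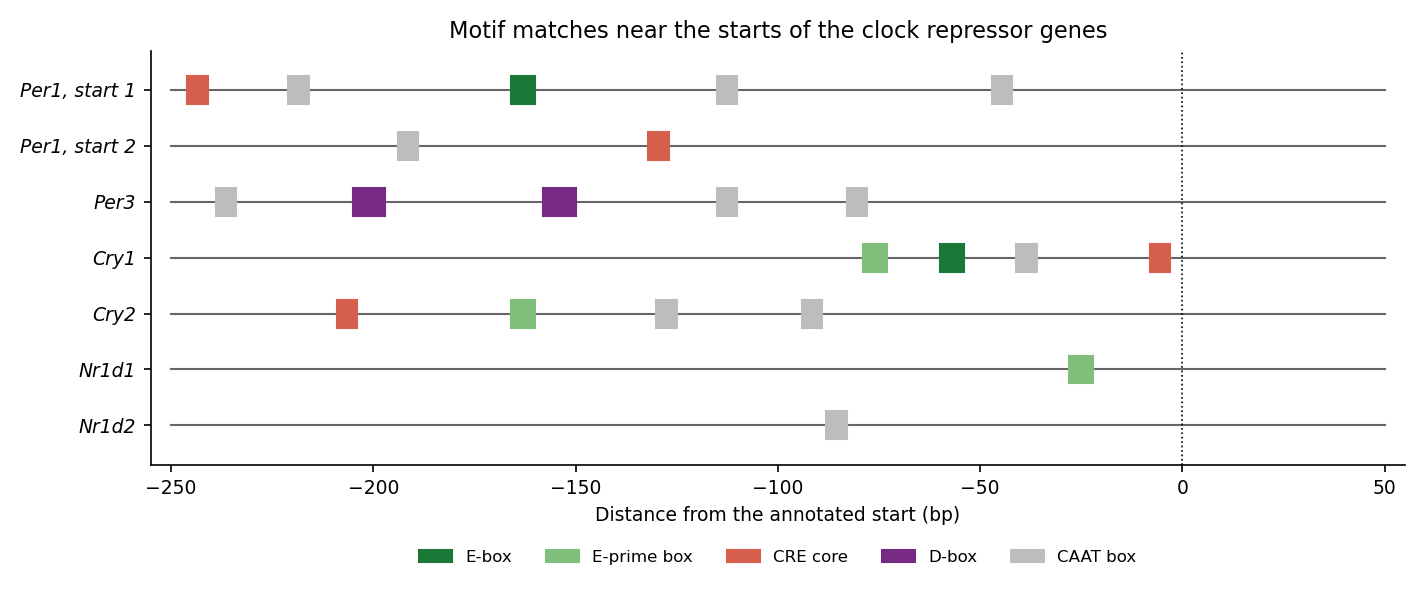
Positions of motif matches (colored boxes) on the 7 promoter windows of 6 repressor genes, from 250 bases before to 50 bases after the annotated start (horizontal axis, bp; dotted line, start). CRE core stands for TGACG, Per3 is the window with the pair of D-boxes in the spellings searched, and E-boxes appear before Per1 and Cry1.

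Side by side, Per1, Per2, Cry1 and Nr1d2 had higher means at 4°C in both genotypes, Per3 and Nr1d1 had lower means, and Cry2 was nearly level. In limma at a Benjamini-Hochberg adjusted p under 0.05 over all genes, 6 of the 7 were called in control mice, 4 higher and 2 lower, where 46% of all genes were called, 22.3% higher and 23.7% lower. With scaling to the 75th percentile the share of higher genes among those called in control mice was 38.2%, against 48.5%, and the median of all genes shifted by -0.11. In BAT-Mcu-KO mice 4 of 7 were called, Per1 and Per2 higher and Per3 and Nr1d1 lower, where 43.3% of all genes were called, 21.4% higher and 21.9% lower. The ranges of the temperatures did not overlap for Per3 alone in control mice, against 25.2% of all genes, and for Per1, Per2 and Per3 in BAT-Mcu-KO mice, against 24.2%. Since these comparisons chose the genes, these counts are no test of them and nothing is read from them. The median log2 difference of the 7 genes was 0.58 in controls and 0.32 in the knockouts, beside -0.022 and -0.023 over all genes. It is likewise a description and shows no common shift. Single genes ran from -2.97 to 0.78 in controls and from -2.71 to 0.61 in the knockouts.

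Levels were compared between genes per kilobase of exon. At RT, Per3 had the highest mean in control mice, with 231 ± 27.4 normalized counts per kilobase (SD, n = 6), followed by Nr1d1 with 194 ± 54.3, Per1 with 166 ± 42.1 and Nr1d2 with 115 ± 25.0. Per2 (71.1 ± 24.4) and Cry2 (69.2 ± 7.13) came next, and Cry1, at 33.6 to 76.0 in single mice, was the lowest. At 4°C, Per1 stood first with 255 ± 32.9 (SD, n = 5) and Per3 last with 29.5 ± 4.93, below every value of Cry2, its neighbour in the order. Between them came Nr1d2 (172 ± 42.3), Per2 (105 ± 10.7), Nr1d1 (103 ± 32.6), Cry1 (89.2 ± 33.4) and Cry2 (70.8 ± 15.3). The ranges of neighbours overlapped at every step at RT in control mice, and at 4°C at every step but those from Nr1d2 to Per2 and from Cry2 to Per3. BAT-Mcu-KO mice had the same order at 4°C, and at RT it differed by an exchange of Per2 and Cry2, whose ranges overlapped. With the length of the longest transcript in place of all exons, 10 of the 28 positions changed, but Per3 stayed first at RT and last at 4°C.

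BAT-Mcu-KO mice were compared with control mice at each temperature, a comparison that the choice of genes did not use. All knockouts and no controls carried Ucp1-Cre, so loss of Mcu and the transgene cannot be told apart in this design. At RT, 0 of the 7 repressors were called by limma and 0 had an unadjusted p under 0.05, where 0.0478% of all genes were called, 7 genes with 754 under an unadjusted p of 0.05. The log2 differences of BAT-Mcu-KO from control mice ran from -0.073 for Nr1d1 (95% interval -0.61 to 0.46) to 0.24 for Nr1d2 (-0.080 to 0.57), and the smallest adjusted p was 0.971 (limma). The interval of Per3 was the narrowest, -0.16 to 0.23, around 0.033. At 4°C, 0 of 7 were called and 1 had an unadjusted p under 0.05, where 0.0751% of all genes were called, 11 genes with 1023 under an unadjusted p of 0.05. DESeq2 and edgeR on the recovered reads also called 0 of the 7 at either temperature.

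The gene with the unadjusted p under 0.05 at 4°C was Per3, which stood less low in BAT-Mcu-KO mice. Its mean was 346 ± 33.7 (SD, n = 6) there and 283 ± 47.4 (SD, n = 5) in control mice, with 3 of 6 BAT-Mcu-KO values above every control value. The log2 difference was 0.30 (95% interval 0.093 to 0.50, adjusted p = 0.53, limma), and over the other ways of processing all mice it was 0.29 to 0.33 with adjusted p of 0.337 to 0.734. It does not pass the correction over all genes. The 6 other repressors had log2 differences between -0.070 (Cry2) and -0.0044 (Per2), of which all but that of Cry2 changed sign under at least 1 other way of processing, and the widest interval was that of Nr1d1, -0.57 to 0.55. The ranges of the genotypes overlapped for all 7 at RT, where 0.218% of all genes did not overlap, and at 4°C, where 0.683% did not. These intervals leave room for differences of the size of the bounds, and a p that misses the threshold does not show that the genotypes are alike.

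Whether the cold difference of the repressors was unequal in the 2 genotypes was tested by the interaction. Called were 0 of the 7 genes by limma, DESeq2 and edgeR, with 0 at an unadjusted p under 0.05, where 0% of all genes were called by limma, with 878 at an unadjusted p under 0.05. For Per3 the cold difference was smaller in size in BAT-Mcu-KO mice by 0.26 (95% interval -0.018 to 0.55, adjusted p = 0.841, limma). For Cry1 and Nr1d2, which were called by cold in control mice and not in BAT-Mcu-KO mice, the interaction was -0.24 (-0.90 to 0.43, adjusted p = 0.935, limma) and -0.26 (-0.73 to 0.21, adjusted p = 0.893, limma), so the difference between the genotypes is not shown.

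**Figure D3:**
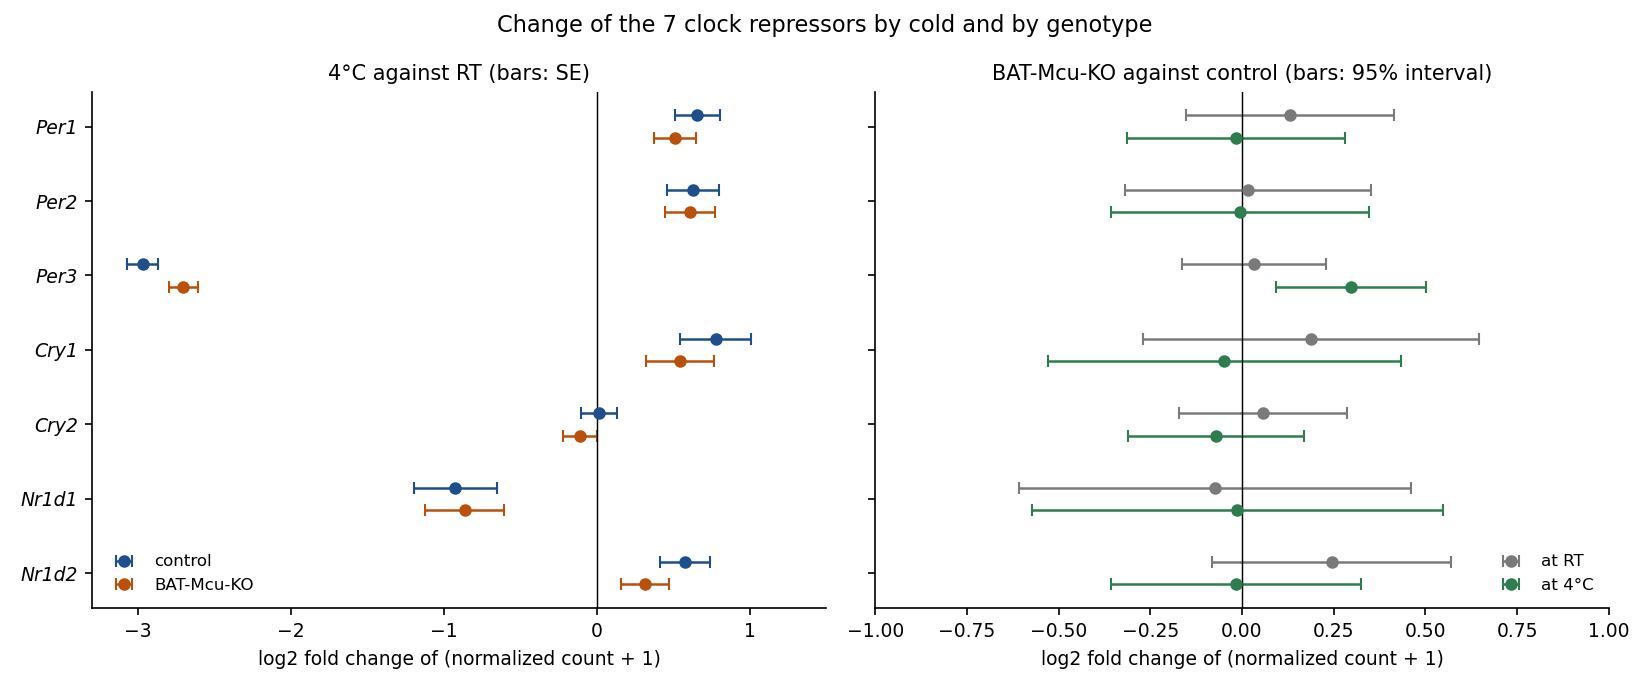
Log2 fold change of each repressor (vertical axis) at 4°C against RT in control and BAT-Mcu-KO mice with SE as bars (left), and of BAT-Mcu-KO against control mice at RT and 4°C with 95% intervals as bars (right). Per3 at 4°C is the point whose interval by genotype, 0.093 to 0.50, lies above 0.

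The other clock genes were followed as a list of 39, all measured. In control mice 26 were called at 4°C, 16 higher and 10 lower, and among the knockouts again 26, with 14 higher and 12 lower, and 21 were called in the same direction in both genotypes, 11 higher and 10 lower. Over all genes 46% were called in controls, 22.3% higher and 23.7% lower, and 43.3% in the knockouts, 21.4% higher and 21.9% lower. The median log2 difference of the list was 0.11 in controls and 0.058 in the knockouts, beside -0.022 and -0.023 over all genes. Among the activators and ROR receptors, the partners and rivals of the repressors, 4 of 7 were called higher (Clock, Arntl, Npas2 and Rora) and 1 lower (Arntl2) in each genotype. Arntl, which encodes BMAL1 and is the classical REV-ERB target, had a mean normalized count of 8.42 ± 4.73 at RT (SD, n = 6) and 246 ± 49.9 at 4°C (n = 5) in control mice, and of 11.5 ± 8.45 and 211 ± 28.4 (n = 6 each) in BAT-Mcu-KO mice. Its log2 difference was 4.84 (SE 0.39, adjusted p = 3.08e-10, limma) and 4.41 (SE 0.37, adjusted p = 7.21e-10), the furthest of the list. The list was chosen with earlier results of these data known, and single genes were named for wide changes in this same comparison. The adjusted p-values by cold printed for such genes, here and below, are therefore a description and test nothing. Npas2, a paralog of Clock, had values of 0 to 3.62 at RT and 0 to 26.5 at 4°C, too low for a fold change.

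The D-box factors split by sign. Nfil3, the repressor at D-boxes, had a mean of 99.6 ± 40.1 at RT and 605 ± 79.2 at 4°C in control mice, a log2 difference of 2.71 (SE 0.29, adjusted p = 3.33e-08, limma), and of 2.83 in BAT-Mcu-KO mice. The activators Dbp, Tef and Hlf were called lower in both genotypes. Hlf had a mean of 413 ± 41.9 at RT and 109.6 ± 15.0 at 4°C in control mice, a log2 difference of -1.91 (SE 0.15, adjusted p = 1.27e-10, limma), and of -2.04 in BAT-Mcu-KO mice. For Tef the difference was -0.69 and -0.61, and for Dbp -0.77 and -0.94.

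Of 5 other repressors and modulators, Ciart, an inhibitor of BMAL1 and CLOCK, was called higher in both genotypes, with log2 differences of 0.72 and 0.83, and Bhlhe40, which competes for E-boxes, lower, with -0.89 and -1.09. Tipin was called higher and Bhlhe41 lower in BAT-Mcu-KO mice alone, and the interaction did not pass for either. Of 8 kinases that act on PER and CRY proteins, 5 were called higher in controls and 3 in the knockouts, and Gsk3b lower in both. The casein kinase gene Csnk1e differed by 0.61 and 0.55, and Prkaa1, a catalytic subunit of AMPK, by 0.55 and 0.53. Of 7 genes for ubiquitin ligases and a deubiquitinase, 3 were called higher and 1 lower in control and 1 higher and 2 lower in BAT-Mcu-KO mice. The paralogs Fbxw11 and Btrc, whose proteins mark phosphorylated PER for degradation, went in opposite directions, with 1.07 and 0.82 for Fbxw11 and -0.94 and -1.03 for Btrc. In the REV-ERB corepressor complex, 2 of 6 were called higher, Tbl1x and Gps2 in controls and Tbl1xr1 and Gps2 in the knockouts. Ncor1 and Hdac3, 2 of the 6, were called lower in both. Over all genes 22.3% were called higher and 23.7% lower in controls, and 21.4% and 21.9% in the knockouts. Nothing is read from these small counts by role. Hdac3, the deacetylase, had log2 differences of -0.58 and -0.61, and Gps2 of 0.56 and 0.45. Of the clock-controlled outputs, Wee1, a cell cycle kinase gene driven through E-boxes, had -2.18 and -1.83, and Nampt was called higher in BAT-Mcu-KO mice. By genotype, limma called 0 of the 39 at RT, with 1 at an unadjusted p under 0.05, 0 at 4°C, with 5, and 0 in the interaction, with 3, and DESeq2 and edgeR called 0 in each. Of all 14651 genes, 754, 1023 and 878 had an unadjusted p under 0.05 by limma in these comparisons, so nothing is read from the counts.

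**Figure D4:**
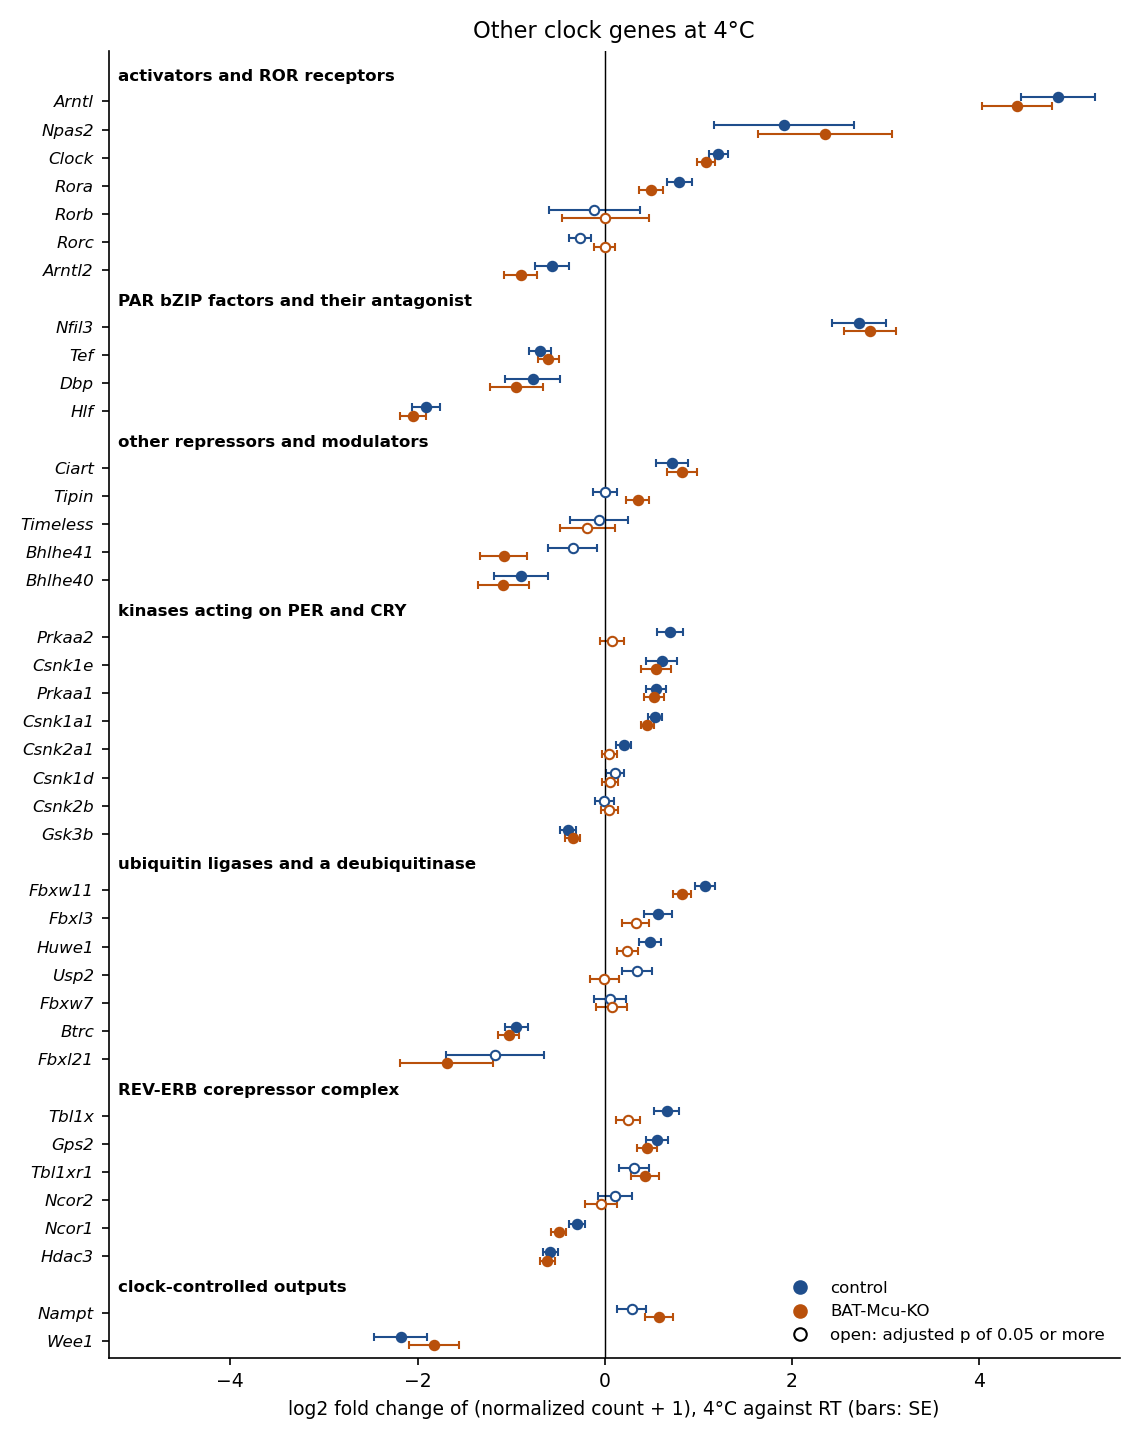
Log2 fold change at 4°C against RT (horizontal axis, with SE as bars) of the 39 other clock genes by role, in control (blue) and BAT-Mcu-KO (orange) mice, with open circles where the adjusted p was 0.05 or more. Arntl stands furthest to the right, at 4.84 and 4.41, and Wee1 and Hlf furthest to the left.

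How the repressors varied together among mice of the same group was taken from deviations from the group mean on the log2 scale, a measure that the choice of genes did not use. Over 23 mice, 21 pairs were compared, and 1 passed an adjusted p under 0.05. Cry1 and Nr1d1 went in opposite directions, with Pearson's r = -0.63 (permutation p = 0.00115, adjusted p = 0.0241) and Spearman's rho = -0.69 (permutation p = 0.00072, adjusted p = 0.0151), both two-sided with 100000 permutations within groups. Without the 2 mice farthest from the median of Cry1, r was -0.52. Within temperatures r was -0.69 for the 12 mice at RT and -0.58 for the 11 at 4°C, and with adjusted p of 0.184 and 0.251 by permutation neither passed over 21 pairs. Per1 and Per2 had r = 0.62 (permutation p = 0.0272, adjusted p = 0.143), which fell to 0.13 without the 2 farthest mice, and so rests on those mice. Per1 and Cry2 had r = 0.090 over the 23 mice (permutation p = 0.672, adjusted p = 0.869) and did not pass. At 4°C alone, an alternative setting with its own correction over 21 pairs, they had r = 0.90 (permutation, adjusted p = 0.0132). Without the 2 mice farthest from the median of Per1 it was 0.81, and at RT r was -0.50. The REV-ERB pair Nr1d1 and Nr1d2, opposite across temperatures, had r = 0.52 within groups (permutation p = 0.0161, adjusted p = 0.117). Among facts of the libraries, the deviations of Nr1d1 had r = 0.45 with the endothelial marker sum, and those of Cry1 had r = 0.42 with the muscle marker sum and -0.37 with the mitochondrial share of reads, and their part in the pair was not tested.

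**Figure D5:**
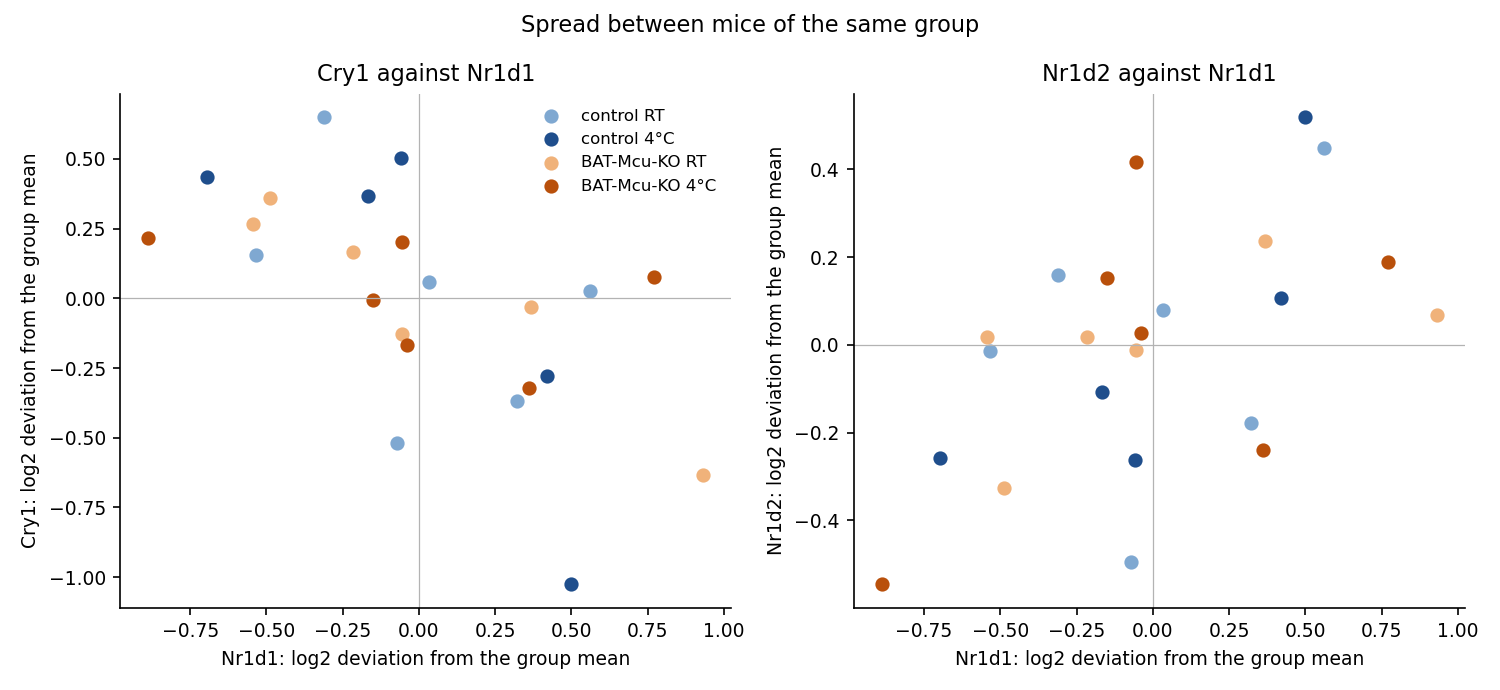
Deviation of each mouse from its group mean (log2 scale, both axes, 1 point per mouse, colored by group) for Cry1 against Nr1d1 (left) and Nr1d2 against Nr1d1 (right). Mice high in Nr1d1 tend to be low in Cry1 (r = -0.63), and control replicate 1 at 4°C is the lowest point for Cry1.

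The genes whose deviations were most like those of each repressor were taken from 9524 genes whose mean over the 23 mice was at least 50 normalized counts, and as the highest of so many they are a description. Per1 was closest to Zbtb16 (r = 0.84, rho = 0.74, r = 0.57 without the 2 farthest mice), then Ddit4 and Map3k6. Per2 was closest to Fam126b (r = 0.79), Tle3 and Tns1, and Per3 to Ppcdc (r = 0.75), Mars and Rint1. Cry1 was closest to Fam208b (r = 0.81), Capn10 and Plekha1, and Cry2 to Whamm (r = 0.85), Pank1 and Nupr1l. Nr1d1 was closest to Etv3 (r = 0.76), Fam149b and Pwwp2b, and Nr1d2 to Klhl24 (r = 0.84, 0.83 without the 2 farthest mice), Golga2 and Cdc27. The 7 repressors themselves were left out of the search.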

How the data were processed

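BAT RNA of 23 mice was made into Smart-seq2 libraries and sequenced. The authors aligned the paired reads to mm10 with STAR (version 2.4.0j) and GENCODE M7 annotations and counted uniquely mapped exonic reads with HTSeq, irrespective of strand. The authors deposited these counts as a signal, normalized by dividing each sample by its DESeq2 size factor, for the 14651 genes that reached 8 reads in 6 or more samples. The authors also deposited a table of their own DESeq2 comparisons (fold changes as a linear ratio and as log2 values, with p-values), which was not used. Whole reads were recovered for 100% of the values within a tolerance of 0.01 reads, which gives the depth, and counts cover counting error only.

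Groups and replicate numbers came from the sample labels, and each value column was matched by name. The members and the lists were chosen with earlier results of these data known. limma (version 3.58.1, R version 4.3.3) was fitted to log2(normalized count + 1) with 4 group means, all 23 samples and a variance trend, with Benjamini-Hochberg adjustment over all genes. The comparisons were cold in each genotype, genotype at each temperature and the interaction. Named were all 7 repressors and, of the other clock genes, up to 2 per role with the widest change by cold in control mice among those called in both genotypes. Dbp, Tef, Rora and the genes that make up counts of 5 or fewer were named after their values were seen. For likeness, 3 genes per repressor were named. As alternatives, the pseudocount was set to 0.5 or 10, genes were filtered on a mean of 50 or on 8 in every sample, values were quantile normalized or scaled to the 75th percentile, the trend or the groups not compared were dropped, a block by replicate number was added, recovered reads were tested with edgeR (version 4.0.16, quasi-likelihood) and DESeq2 (version 1.42.0), and each mouse was left out in turn. A covariate of the muscle marker sum was added after seeing the data. The tests were tried on simulated data. Each replicate number names a different animal in each group, and the correlation of same-numbered mice had a mean of -0.14 to 0.12 between groups, so the numbers were not taken to pair samples. Gene positions come from GENCODE M21 on GRCm38, lengths from its exons, and promoter sequences from RefSeq (GRCm38.p6), with 6 of 7 repressors matched by symbol. Figures were drawn with matplotlib (version 3.10.9) under Python (version 3.11.15).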

Additional observations from a re-analysis of the deposited data

How the results depend on the processing

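The calls by cold rest on the comparisons that chose the genes, so their repeat over settings is no sign of stability. Of all 14651 genes, 6256 to 6756 were called in controls and 5871 to 6509 in the knockouts when a mouse was left out. In all 36 settings, the reported one included, 6 of 7 repressors were called by cold in control mice, and 4 to 5 in BAT-Mcu-KO mice, where Cry1 was called in addition with a pseudocount of 10, under both filters on low values, with only the compared groups, with the replicate block, with the muscle covariate and by DESeq2. When a mouse was left out, Cry1 passed there without control replicate 5 or 6 at RT, control replicate 1, 2 or 5 at 4°C, BAT-Mcu-KO replicate 3 or 4 at RT or BAT-Mcu-KO replicate 6 at 4°C, and Nr1d2 without BAT-Mcu-KO replicate 5 at 4°C. By genotype and in the interaction 0 repressors were called in every setting. The log2 difference by genotype changed sign as follows, each new value being smaller in size than the SE of that difference in the reported limma fit. At RT, that of Per2 was -0.016 with quantile normalization, -0.012 with 75th percentile scaling, and -0.036 and -0.037 by DESeq2 and edgeR. At 4°C, 75th percentile scaling gave 0.013 for Per1, 0.024 for Per2, 0.016 for Nr1d1 and 0.012 for Nr1d2, the replicate block gave 0.0056 for Per2, 0.010 for Cry1 and 0.017 for Nr1d2, and the muscle covariate, added after seeing the data, gave 0.0061 for Per1 and 0.0075 for Nr1d1. For Nr1d1 quantile normalization gave 0.0091, and DESeq2 and edgeR 0.011 and 0.010. The interaction of Per2 was 0.016 with quantile normalization, 0.036 with 75th percentile scaling, and 0.030 and 0.030 by DESeq2 and edgeR. By cold in control mice, Cry2 was -0.091 with quantile normalization and -0.092 with 75th percentile scaling. The cause was not tested.

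Leaving out 1 mouse at a time moved these across 0. By cold in control mice, Cry2 ran from -0.10 to 0.077. By genotype at RT, Per1 ran from -0.013 to 0.23, Per2 from -0.13 to 0.15 and Nr1d1 from -0.26 to 0.039. By genotype at 4°C, Per1 ran from -0.080 to 0.047, Per2 from -0.054 to 0.027, Cry1 from -0.30 to 0.078, Cry2 from -0.13 to 0.047, Nr1d1 from -0.19 to 0.17 and Nr1d2 from -0.10 to 0.11. The interaction ran from -0.15 to 0.13 for Per2 and from -0.11 to 0.25 for Nr1d1. Among the other clock genes called by genotype at 4°C, the count ran from 0 to 1, which was Nampt without control replicate 1 at 4°C. Of the repressor pairs, 0 passed with mice at RT only. With the mice at 4°C alone, Per1 and Cry2 passed (permutation, adjusted p = 0.0132), whereas Cry1 and Nr1d1 did not (permutation, adjusted p = 0.251).

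Over all genes, the count by genotype at RT was 3 with only the 2 compared groups and 20 by DESeq2, against 7. At 4°C it was 7 without the trend, 2 with only the compared groups, 7 with the replicate block, 23 by DESeq2 and 6 by edgeR, against 11, and 3 to 16 when a mouse was left out, lowest without control replicate 2 and highest without control replicate 1 at 4°C. The interaction count was 28 by DESeq2 and 0 to 1 when a mouse was left out. The replicate block changed no other call of a repressor. Detection limits at this depth and spread were not computed.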

Other observations

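Control replicate 1 at 4°C, the shallowest library with 7129271 reads, stood at an extreme of its group for 6 of the 7 repressors, highest for Per1, Cry2, Nr1d1 and Nr1d2 and lowest for Per3 and Cry1. The other mice of that group were extreme for 0 to 4 of them. Of 28 sets of values, 1 for each repressor in each group, 0 held a mouse beyond Dixon's limit at the 95% level.

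Chosen after their values were seen, Bhlhe41, Prkaa2 and Tbl1x were the other clock genes with an unadjusted p under 0.05 both by genotype at 4°C and in the interaction. Of all 14651 genes, 1023 had such a p by genotype at 4°C and 878 in the interaction. For Bhlhe41, a repressor at E-boxes, the log2 difference by genotype at 4°C was -0.75 (SE 0.26, adjusted p = 0.532, limma) and the interaction -0.74 (SE 0.36, adjusted p = 0.832, limma). For Prkaa2, a catalytic subunit of AMPK, which marks CRY proteins for degradation, they were -0.30 (SE 0.14, adjusted p = 0.682, limma) and -0.62 (SE 0.19, adjusted p = 0.741, limma), while at RT its difference had the opposite sign, 0.31 (SE 0.13, adjusted p = 0.94, limma). For Tbl1x, a subunit of the NCOR1 complex, they were -0.28 (SE 0.13, adjusted p = 0.693, limma) and -0.41 (SE 0.18, adjusted p = 0.805, limma). None of them passed the correction over all genes.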
